A study of Mus musculus with 12 samples.

Results

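Of 12 whole mammary fat pad libraries from female C57BL/6 mice, 7 carried lymph node RNA and 5 carried almost none. The 7 node-rich libraries were chosen by a single gene, Ms4a1, which encodes the B cell surface protein CD20: they held at least 5 CPM of it (counts scaled to a common number of gene-assigned reads), and the 5 node-poor libraries held less. Because the same libraries set the classes and supply every value below, all gene differences between node-rich and node-poor pads are descriptions, with no p for any gene. Counts called at an adjusted p under 0.05 by edgeR's quasi-likelihood fit are printed only as a measure of size. The cut fell in a wide gap. The highest node-poor library had 0.823 CPM of Ms4a1, the lowest node-rich library, replicate 3 at 1 mg/kg, had 13.5 CPM, and the next, replicate 1 at 5 mg/kg, had 46.0 CPM. The other node-rich libraries reached up to 203 CPM.

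All mice were C57BL/6, an inbred strain, sampled at postnatal day 84, 4 weeks after folic acid supplementation at 5 mg/kg (6 libraries) or 1 mg/kg (6 libraries). Both groups received folic acid, and no library from unsupplemented mice was analysed here. The right thoracic fat pad was removed whole and frozen, so that fat, ducts, vessels, muscle at the edge and any node inside the pad entered the same RNA. The labels state neither whether a node was looked for nor whether each library is a separate animal, so the spread between libraries may be partly technical. Node-rich libraries were replicates 1, 2 and 3 at 5 mg/kg and replicates 1, 3, 5 and 6 at 1 mg/kg, that is 3 of 6 and 4 of 6 (Fisher's exact test, two-sided, p = 1). The replicate numbers only name libraries.

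A lymph node is built of compartments. B cells fill follicles, which are organised by follicular dendritic cells and other stroma through the chemokine CXCL13; T cells fill the zone around them, held by reticular fibroblasts that supply interleukin 7 and the ligands of CCR7. Lymphocytes enter from blood through high endothelial venules, whose sulfated, fucosylated glycoproteins let the cells roll and stop. Lymph passes through sinuses lined by lymphatic endothelium and filled with macrophages that take up particles, and lymphotoxin from lymphocytes keeps stroma and venules differentiated through the receptor LTBR. In the mouse, nodes lie embedded in fat, including that of the mammary pads.

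Depth was 48.2 to 75.3 M reads in genes (M for mega), with 57.5 ± 5.50 M in node-rich and 64.1 ± 9.14 M in node-poor libraries (mean ± SD, n = 7 and 5). Of 4 library measures compared by exact two-sided permutation, the share of reads lying in more than 1 gene had the smallest p, 0.787 ± 0.122% against 0.657 ± 0.0422% (exact p = 0.0455, adjusted p = 0.182). The 2 mitochondrial rRNA genes took 39.2% to 52.9% of gene-assigned reads in node-rich and 41.9% to 59.5% in node-poor libraries. Replicates 4 and 5 at 5 mg/kg, both node-poor, had the highest levels of brown fat and slow muscle genes, and counts are also given without them.

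In the fit with folic acid group as covariate, 3416 of 19102 tested genes were called higher in node-rich libraries (17.9%) and 2119 lower (11.1%), 29.0% in all. In 1783 genes (9.33%) every node-rich library lay above every node-poor one, and in 805 (4.21%) every one lay below. The genes called higher took a median of 9.69% of gene-assigned reads in node-rich libraries (3.91% to 13.1%) and 3.84% in node-poor ones (2.35% to 5.33%). Those called lower took 7.11% (5.32% to 8.40%) and 9.60% (7.23% to 12.3%). The split depends on the scaling. Values below are CPM scaled by TMM, a method that sets most genes level between libraries, and with library size alone the calls were 2357 higher and 58 lower, as the median of all genes moved by 0.28 on the log2 scale. Of the 2119 genes lower with TMM, 2093 kept a log2 fold below 0 with library size alone. The number called lower was 975 without replicate 4 at 1 mg/kg, 1174 without replicate 2 at 1 mg/kg and 1349 without replicate 2 at 5 mg/kg. Without replicates 4 and 5 at 5 mg/kg, 2585 genes were called higher and 2142 lower.

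Promoters of 5 genes higher in the node-rich pads are shown because they carry short motifs bound by lymphoid and lymphotoxin-driven factors. The motifs were searched on both strands in the 250 bases before the RefSeq start site (GRCm38.p6). The first is the octamer ATTTGCAT (ATGCAAAT on the other strand), known for binding POU factors of B cells such as POU2F2. The second is GAGGAAGT (ACTTCCTC), a core of sites for the ETS factor PU.1. The third is GGGACTTTC (GAAAGTCCC), most of the classic kappa B site of NF-kappa B. Capitals mark the motif.
Vpreb3, chr10:75948050-75948299, plus strand: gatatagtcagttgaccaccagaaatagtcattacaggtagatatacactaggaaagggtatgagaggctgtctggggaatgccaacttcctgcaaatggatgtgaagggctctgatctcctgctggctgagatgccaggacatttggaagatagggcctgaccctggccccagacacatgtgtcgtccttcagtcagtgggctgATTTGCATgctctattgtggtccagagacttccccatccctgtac
Cd37, chr7:45238840-45239089, minus strand: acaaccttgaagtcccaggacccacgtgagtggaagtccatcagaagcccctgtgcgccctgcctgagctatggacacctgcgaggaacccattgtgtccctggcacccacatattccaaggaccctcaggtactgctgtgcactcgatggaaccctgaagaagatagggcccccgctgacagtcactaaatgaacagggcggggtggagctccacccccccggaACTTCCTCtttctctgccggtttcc
Cd72, chr4:43454627-43454876, minus strand: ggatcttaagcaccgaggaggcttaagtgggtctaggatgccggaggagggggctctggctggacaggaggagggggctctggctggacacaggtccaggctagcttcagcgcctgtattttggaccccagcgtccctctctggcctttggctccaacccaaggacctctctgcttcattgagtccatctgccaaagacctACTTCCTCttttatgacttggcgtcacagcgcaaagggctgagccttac
Ltb, chr17:35194257-35194506, plus strand: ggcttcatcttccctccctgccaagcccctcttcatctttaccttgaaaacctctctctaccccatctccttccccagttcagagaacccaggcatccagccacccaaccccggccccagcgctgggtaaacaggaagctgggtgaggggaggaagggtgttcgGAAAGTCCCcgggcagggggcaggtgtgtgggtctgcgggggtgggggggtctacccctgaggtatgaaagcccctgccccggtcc
Madcam1, chr10:79664309-79664558, plus strand: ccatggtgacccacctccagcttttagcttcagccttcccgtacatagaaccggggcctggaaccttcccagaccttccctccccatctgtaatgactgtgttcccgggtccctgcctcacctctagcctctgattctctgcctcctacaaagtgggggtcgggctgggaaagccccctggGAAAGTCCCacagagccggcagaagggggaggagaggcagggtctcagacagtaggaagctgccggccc

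Vpreb3, a B cell chaperone of the immunoglobulin light chain, holds the octamer, beginning 45 bases before its start. Cd37, a tetraspanin of B cells, and Cd72, a B cell inhibitory receptor, hold the PU.1 core, beginning 25 and 49 bases before theirs. Ltb, one chain of lymphotoxin, and Madcam1, an adhesion molecule of follicle stroma and venules, hold the kappa B letters, beginning 86 and 69 bases before theirs. Over all 27025 promoter windows of this length the octamer was in 1.61%, the PU.1 core in 2.44% and the kappa B letters in 0.278%. Among genes called higher (2297 windows) the shares were 2.09%, 5.18% and 0.697%. Among genes called lower (1524 windows) they were 1.44%, 1.25% and 0.262%, and among all genes tested (12527 windows) 1.34%, 2.51% and 0.335%. The octamer was in 1 of 17 windows of B cell list genes, that of Vpreb3, and in 0 of 15 windows of T cell list genes. A match describes the letters of the window and does not show that a factor binds. The PU.1 and kappa B motifs were chosen after values had been seen.

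B cell genes were higher by far in the node-rich pads. Of 22 B cell genes tested, Ms4a1 among them, 21 were called higher (background 17.9% of all genes, from which nothing is read here because the classes were set by one of these genes), with a median log2 fold of 6.49 over the list against -0.06 over all genes. Cd79a (chr7:24897381-24902197), which encodes the signalling chain of the B cell receptor, had 0.269, 0.280, 0.471, 0.518 and 0.687 CPM in the node-poor libraries and 10.9 CPM at the lowest, 69.0 at the median and 80.8 at the highest in the node-rich ones. The classes lay far apart, and replicate 3 at 1 mg/kg was again the lowest of its class (log2 fold 7.06 ± 0.57, SE). Cr2, the complement receptor of B cells and follicular dendritic cells, was at 0.531, 0.555, 0.621, 0.637 and 1.33 CPM in node-poor libraries and at 15.8 to 147 CPM, median 93.1, in node-rich ones. Cxcr5, the receptor that leads B cells into follicles, lay at 0.0336 to 0.249 CPM in node-poor and 6.12 to 42.8 CPM in node-rich libraries. The exception was Ebf1, a B cell factor that fat cell precursors also use, with 75.7 to 115 CPM in node-poor and 71.6 to 104 CPM in node-rich libraries. Over the 12 libraries the genes whose log2 CPM was most alike to that of Ms4a1 were Cr2 (Pearson r = 0.999), Fcmr, Cst7, Cd79a and Pax5. These 5 share the split into the classes, which alone gives a high r.

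The antibody genes showed which B cell products were present. Immunoglobulin variable segments were called higher in 134 of 137 cases and none was lower. Ighd, the constant region of naive B cells, ran from 1.13 to 2.97 CPM in node-poor and from 32.2 to 254 CPM in node-rich libraries. Ighm lay at 17.1 to 34.7 CPM in node-poor and 115 to 487 CPM in node-rich libraries. Switched isotypes had the widest spans over the node-rich libraries of all list members called higher. Ighg1 reached 92.2 CPM in replicate 1 at 1 mg/kg and lay between 1.45 and 20.2 CPM in the other 6. Ighg3 reached 65.1 CPM in replicate 5 at 1 mg/kg, 95.4 times the lowest node-rich value, and Ighg2c 120 CPM in the same library. That library also had the most Jchain, which joins antibody polymers (38.5 CPM, others 4.03 to 26.1). Of 7 tested germinal centre genes 2 were called higher, Gcsam and Rgs13, and of 9 plasma cell genes 3 were, Jchain, Mzb1 and Derl3, against 17.9% of all genes. Igha, the mucosal isotype, was not called (1.11 ± 0.52, SE).

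T cell genes were higher in the same pads, all 25 of 25 being called against 17.9% of all genes, with a median log2 fold of 5.28. Cd3e, a chain of the T cell receptor complex, had 0.228, 0.273, 0.355, 0.504 and 0.870 CPM in node-poor libraries and from 4.50 to 26.0 CPM, median 15.6, in node-rich ones. Both T cell lineages were present, with Cd4 at 17.7 to 64.3 CPM and Cd8a at 7.12 to 37.7 CPM in node-rich libraries, against 0.643 to 1.40 and 0.286 to 0.839 CPM. Foxp3, the factor of regulatory T cells, ran from 1.30 to 6.17 CPM against 0.0152 to 0.155 CPM. Ccr7, the chemokine receptor that guides T cells into nodes, had the largest fold of the list, at 7.63 to 40.2 CPM against 0.151 to 0.591 CPM (6.32 ± 0.52, SE). Of 67 tested genes taken by symbol as T cell receptor segments, 66 were called higher and 1 lower. The symbol pattern also takes in Tradd, which is not a segment, so the gene called lower need not be a segment. Natural killer and innate genes were called higher in 8 of 9 cases with a smaller median of 2.04.

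**Figure D1:**
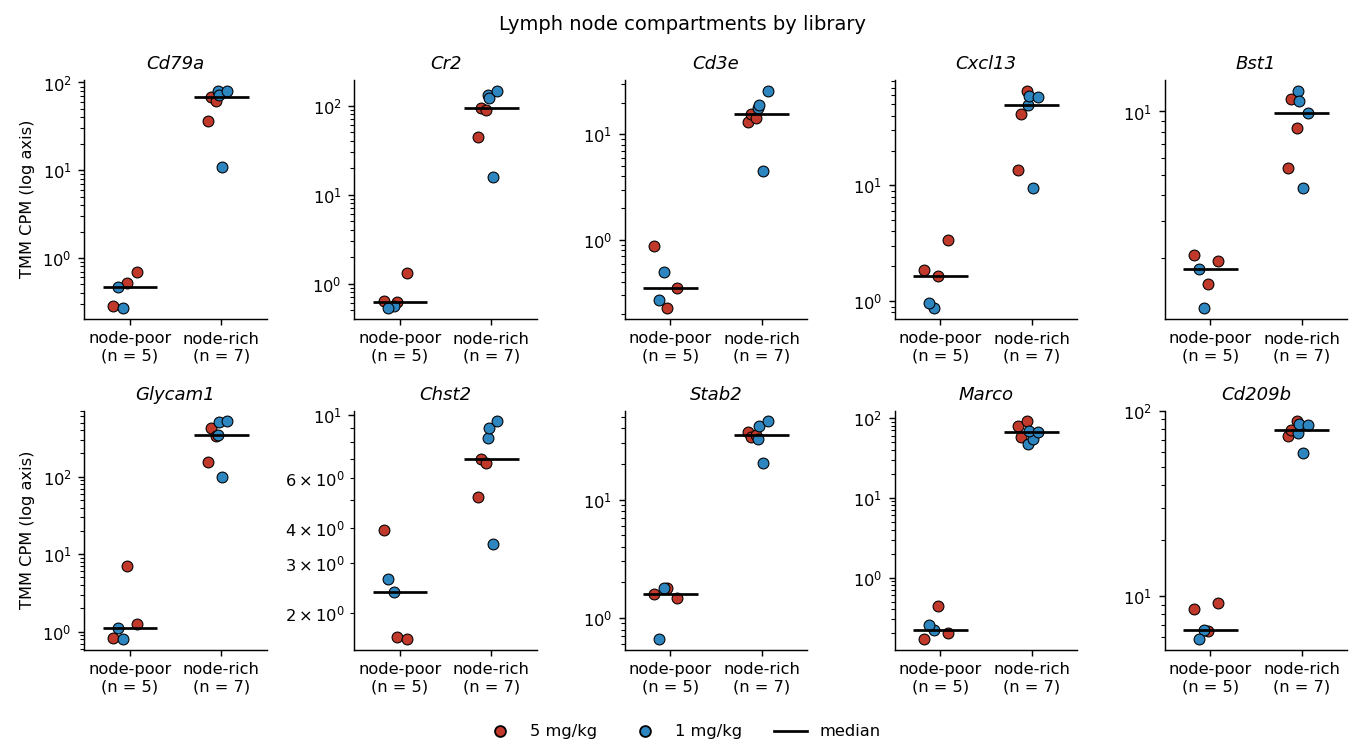
TMM-scaled CPM on log axes of 10 genes of node compartments in each library, node-poor (n = 5) and node-rich (n = 7). Points are libraries coloured by folic acid group and bars are medians. For every gene shown except Marco the lowest node-rich point is replicate 3 at 1 mg/kg. For Marco the 7 node-rich points span only 46.9 to 90.3 CPM. For Chst2 the classes overlap.

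Part of the genes listed for node stroma were higher in the same pads. Among 8 follicle stroma genes 5 were called higher, against 17.9% of all genes (median log2 fold 1.99). Cxcl13, the chemokine of follicles, had 0.874, 0.972, 1.64, 1.86 and 3.35 CPM in node-poor libraries and from 9.46 to 65.8 CPM, median 49.6, in node-rich ones (4.76 ± 0.60, SE). Tnfsf11, the cytokine RANKL, lay at 0.0455 to 0.140 CPM in node-poor and 1.04 to 6.35 CPM in node-rich libraries. Enpp2, Mfge8 and Coch, the members that were not called, had folds of 0.34 ± 0.17, 0.11 ± 0.22 and 0.95 ± 0.41 (SE). The T zone list gave 5 of 8 higher (median 1.03). Grem1, a BMP antagonist known from reticular cells, was at 0, 0, 0.0168, 0.0455 and 0.269 CPM in node-poor and at 2.54 to 11.4 CPM in node-rich libraries. Il7, which keeps T cells alive, lay at 1.06 to 1.49 CPM in node-poor and 2.04 to 7.57 CPM in node-rich libraries. Bst1, a surface enzyme of node stroma, lay at 1.16 to 2.07 CPM in node-poor and 4.30 to 12.6 CPM in node-rich libraries. Pdpn, the podoplanin of reticular cells and lymphatics, did not separate the classes (-0.03 ± 0.23, SE). The chemokine genes Cxcl12 and Cxcl9 of the same list were not called either (0.24 ± 0.14 and 0.20 ± 0.17, SE). The CCR7 ligands could not be followed: Ccl21a was listed at 0 in every library, and Ccl19 was at 0.281 CPM at most and was not tested. Both belong to families with near-identical copies, whose reads the counting may discard.

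Genes of high endothelial venules were among those with the largest folds. Of 8, 6 were called higher and 1 lower, against 17.9% and 11.1% of all genes (median log2 fold 2.44). Glycam1 (chr15:103562759-103565081), a mucin-like glycoprotein that milk also contains, had 0.807, 0.824, 1.11, 1.24 and 7.001 CPM in node-poor libraries and from 98.2 to 518 CPM, median 343, in node-rich ones (7.48 ± 0.83, SE). Among milk protein genes, Csn2 and Wap lay at 0.112 CPM or less in every library, and Csn3 at 3.25 to 14.2 CPM in node-rich and 2.50 to 23.0 CPM in node-poor libraries (not called). Enzymes that modify the sugars of these venules followed: Chst4, a sulfotransferase, was at 0.0414 CPM or less in node-poor and at 0.831 to 3.65 CPM in node-rich libraries, and Fut7, a fucosyltransferase, at 0.111 to 0.357 and 0.810 to 2.97 CPM. B3gnt3, which extends the sugar core, was the member called lower (-0.40 ± 0.12, SE; -0.15 and not called with library size alone). Ackr1, a marker of venules in general, was not called (0.22 ± 0.14, SE). Adhesion molecules of activated endothelium and stroma were split. Vcam1 (42.1 to 74.4 against 13.6 to 18.01 CPM), Icam1 (17.3 to 43.6 against 9.15 to 11.9 CPM) and Icam2 were higher. Podxl, a sialomucin of endothelium, was called lower (-0.72 ± 0.20, SE; -0.49 and not called with library size alone), and the selectins Selp and Sele had folds of -0.51 ± 0.18 and -0.36 ± 0.26 (SE, neither called).

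Lymphatic and sinus genes were higher, with smaller folds on the whole. Of 11 lymphatic genes 8 were called higher, against 17.9% of all genes (median log2 fold 1.39). Stab2, a scavenger receptor of sinus endothelium, had 0.668, 1.49, 1.60, 1.78 and 1.80 CPM in node-poor libraries and from 20.4 to 45.5 CPM, median 35.1, in node-rich ones (4.62 ± 0.29, SE). The node-poor pads were not without lymphatic RNA. Lyve1, a hyaluronan receptor of lymphatics and some macrophages, ran from 11.6 to 29.5 CPM there and from 33.9 to 63.7 CPM in node-rich pads, and Prox1, the factor that sets lymphatic identity, from 1.103 to 5.81 and from 9.01 to 16.5 CPM. F8, coagulation factor VIII, which endothelial cells make, was among the 10 genes with the smallest p of those higher, at 6.03 to 7.65 CPM against 36.6 to 69.8 CPM.

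Marco (chr1:120474538-120505024), a scavenger receptor of node sinus and splenic marginal zone macrophages, had the largest fold of all named genes, 8.06 ± 0.27 (SE, log2). It was at 0.171, 0.200, 0.218, 0.258 and 0.435 CPM in node-poor libraries and from 46.9 to 90.3 CPM, median 66.1, in node-rich ones. Other macrophage genes of nodes followed: 6 of 7 were called higher (median 4.04), among them Cd209b, a lectin (5.88 to 9.13 against 59.1 to 87.8 CPM), Timd4, a receptor for dying cells (2.13 to 4.83 against 40.01 to 84.2 CPM), and Spic, a factor of iron-handling macrophages (0.331 to 0.531 against 3.83 to 10.1 CPM). Vsig4, the exception, stayed at 0.511 CPM or less everywhere. Macrophage genes that fat pads carry by themselves mostly overlapped between the classes. Cd68 did not, at 11.3 to 13.4 CPM in node-poor and 15.0 to 31.0 CPM in node-rich libraries. Of the 10, 2 were called higher, Csf1r and Cd68, near the 17.9% of all genes, and the list median was -0.08. That median was 0.15 with library size alone. Mrc1, a mannose receptor, ran from 57.6 to 170 CPM in node-rich and from 103 to 135 CPM in node-poor libraries.

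Antigen presentation genes were higher as a block. All 10 MHC class II genes were called higher, against 17.9% of all genes (median 1.89). The invariant chain gene Cd74 was at 170, 171, 196, 206 and 230 CPM in node-poor libraries and at 318 to 990 CPM, median 813, in node-rich ones. The members known from B cells, H2-Oa, H2-Ob and H2-DMb2, had larger folds of 5.74, 5.51 and 4.67 than H2-Aa and H2-Ab1 at 1.73 and 1.52. Among 13 dendritic cell genes 10 were called higher. They include Xcr1 of cross-presenting cells (3.40 ± 0.33), Siglech of plasmacytoid cells (3.04 ± 0.24), Ccr9 (5.74 ± 0.54) and the chemokine Ccl22 of mature cells (5.31 ± 0.56, SE each).

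Transcripts of the lymphotoxin ligands and of alternative NF-kappa B components were higher, and activity of the pathway was not measured. Ltb ran from 0.349 to 0.776 CPM in node-poor and from 7.37 to 44.2 CPM in node-rich libraries, and its partner Lta from 0.0168 to 0.104 and from 0.405 to 3.65 CPM. The alternative NF-kappa B genes Relb, Nfkb2 and Map3k14 had folds of 1.73, 1.58 and 1.26. The receptor gene Ltbr, which stroma and fat express, went the other way, with 22.6, 23.1, 26.4, 26.8 and 30.1 CPM in node-poor and 11.9 to 21.6 CPM in node-rich libraries (-0.46 ± 0.14, SE; -0.18 and not called with library size alone). In all, 9 of 11 pathway genes were called higher and 1 lower, against 17.9% and 11.1% of all genes. Cell cycle genes were called higher in 12 of 17 cases (median 1.29). The replication helicase gene Mcm5 was at 4.71 CPM or less against 3.43 to 15.3 CPM, so that the classes overlapped, as they did for Mki67 (7.40 to 34.4 against 20.8 to 69.7 CPM). The Mki67 fold was 1.48 with TMM and 1.67, not called, with library size alone.

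**Figure D2:**
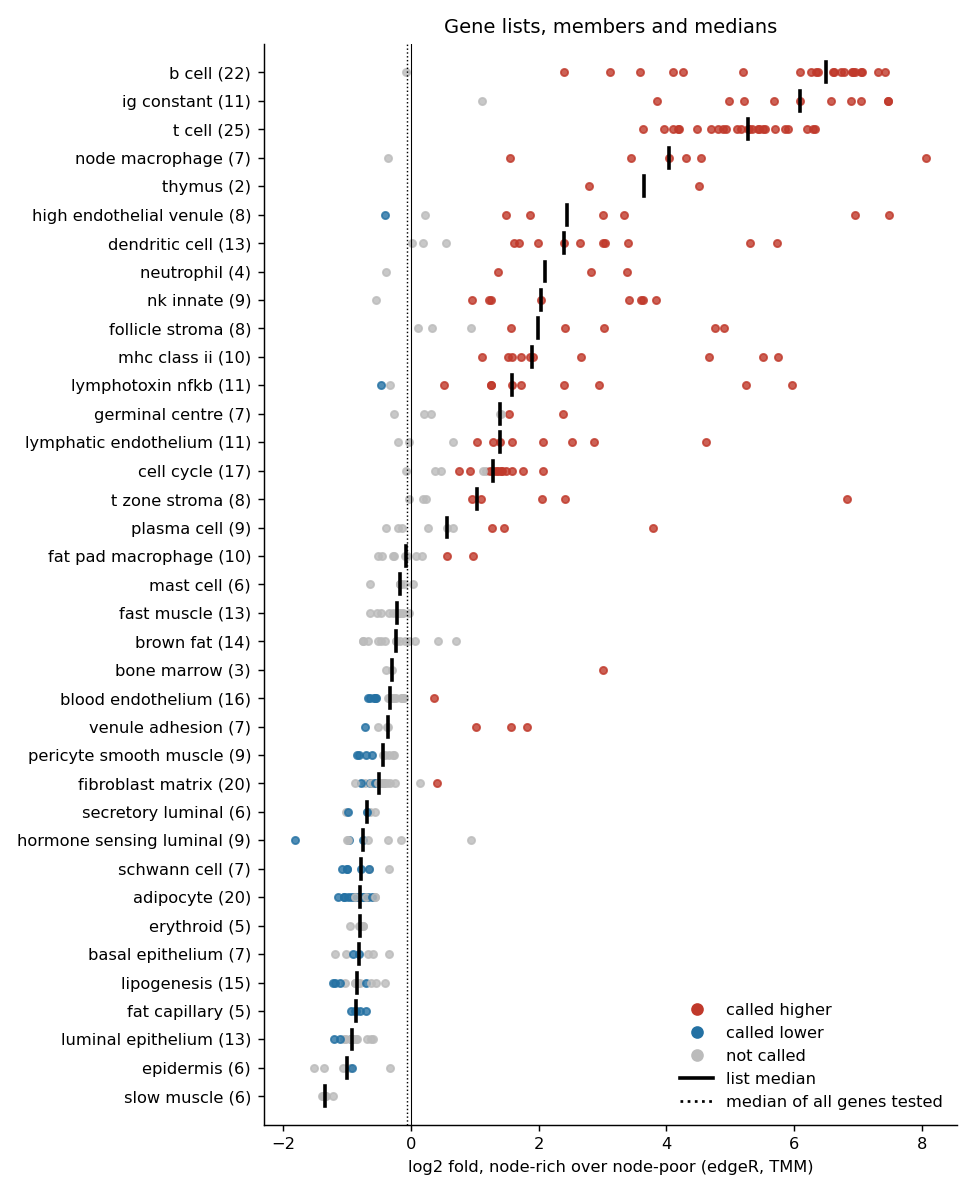
Log2 fold of node-rich over node-poor libraries for every tested member of 37 gene lists (points) with the list median (bar) and the number tested in parentheses. B cell, immunoglobulin constant region and T cell lists have medians of 6.49, 6.08 and 5.28; adipocyte, fat capillary, epithelial and Schwann cell lists lie left of the dotted median of all genes at -0.06.

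Markers of other lymphoid or blood sources were checked beside these lists. The thymus genes Foxn1, Psmb11, Ptcra and Rag2 were at 0.106 CPM or less in every library. Dntt and Aire, the 2 tested members of that list, were called higher (median log2 fold 3.64), against 17.9% of all genes. They reached 1.65 and 0.843 CPM in node-rich libraries, and neither overlapped between the classes. The whole list of 7 genes summed to 0.311 CPM at most in node-poor and 2.65 CPM at most in node-rich libraries. Of 3 tested bone marrow genes 1, Mpo, was called higher, at 0.0639 to 1.13 CPM against 0.0777 CPM or less, and 2 had a log2 fold below 0. The bone marrow list of 6 genes summed to 2.79 CPM at most in node-rich and 1.96 CPM at most in node-poor libraries. Haemoglobin and other red cell genes were called in 0 of 5 cases, with a median fold of -0.80 (-0.47 with library size alone), and mast cell genes in 0 of 6. Neutrophil genes were higher in 3 of 4 cases, S100a8 reaching 2.45 CPM.

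Within the node-rich class the compartments did not vary alike. Replicate 3 at 1 mg/kg, the library nearest the cut, held the B cell genes called higher, Ms4a1 left out, at a median of 16.9% of the median of the other 6 node-rich libraries, and T cell genes at 25.6%. It was the lowest of the class for all 20 of these B cell genes and all 25 T cell genes called. High endothelial venule genes were at 32.4%, follicle stroma at 35.5%, MHC class II at 38.6% and T zone stroma at 40.8%. Lymphatic genes were at 70.8% and node macrophage genes at 75.3% of the other libraries, with Marco at 79.6% and Lyve1 at 94.8%. These shares were not corrected for the level in node-poor pads. That level was 0.435 CPM at most for Marco and 11.6 to 29.5 CPM for Lyve1, and its part in the order was not tested. The order is that of 1 library and has no replicate. This library was singled out by its low Ms4a1, so its low levels of B cell genes, which vary like Ms4a1, came with that choice. The same library had the most muscle creatine kinase RNA of the 12, Ckm at 4742 CPM, whose part in these shares was not tested.

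**Figure D3:**
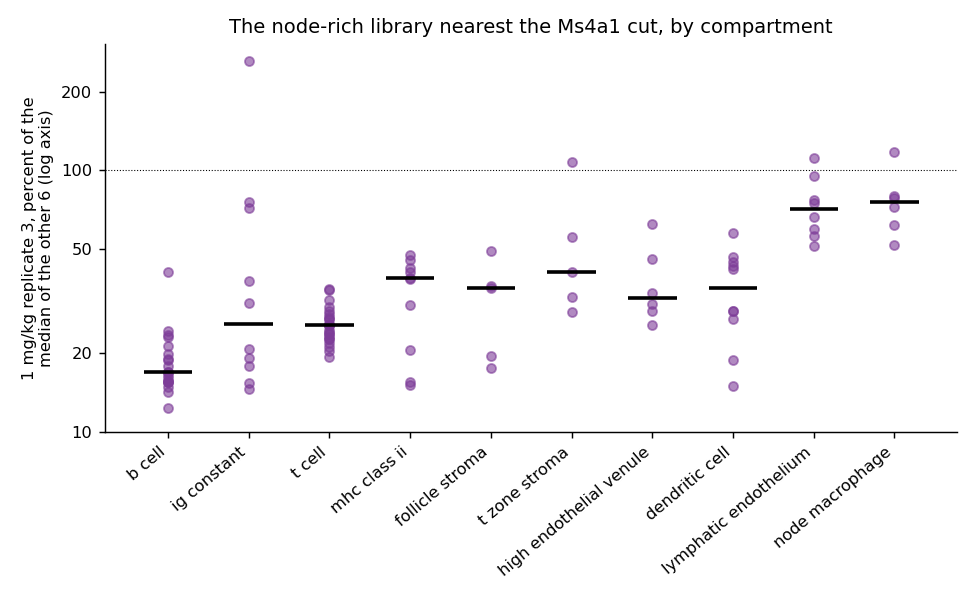
Level in replicate 3 at 1 mg/kg as a percentage of the median of the other 6 node-rich libraries (log axis). Members called higher in 10 lists are shown, without Ms4a1 and not corrected for node-poor levels. Points are genes and bars are list medians. B cell genes have a median of 16.9% and node macrophage genes 75.3%; the immunoglobulin point above the dotted line at 100% is Ighg2c, at 261%.

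Ratios of CPM within a library differed by compartment too. Cr2 over Cd79a lay between 1.24 and 1.86 in the 7 node-rich libraries, a 1.49-fold span. Cd3e over Cd79a spanned 0.219 to 0.411 and Glycam1 over Cd79a 4.24 to 8.98. Marco over Cd79a spanned 0.581 in replicate 1 to 4.91 in replicate 3, both at 1 mg/kg, or 8.46-fold. Siglec1, the sialoadhesin of sinus macrophages, over Cd79a spanned 6.42-fold, and Jchain over Cd79a 14.7-fold. Siglec1 itself lay at 19.97 to 51.18 CPM in node-poor and 68.5 to 106.9 CPM in node-rich libraries. Over the 7 node-rich libraries it spanned 1.56-fold, and Cd79a 7.397-fold. The ratios were not corrected for levels in node-poor pads, whose part in these spans was not tested. Where the cut was raised to 50 CPM of Ms4a1, moving 2 libraries to the other class, Marco had a log2 fold of 1.81 and Stab2 of 2.08, and neither was called.

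Lower in the node-rich pads were genes of fat cells and of the vessels that serve them. All 20 adipocyte genes had a log2 fold below 0, and 15 were called lower, against 11.1% of all genes (list median -0.79; -0.52 with library size alone). Adipoq (chr16:23146536-23158028), the hormone adiponectin, had 760, 775, 867, 949 and 1036 CPM in node-poor libraries and from 236 to 559 CPM, median 490, in node-rich ones, so that the classes did not overlap (-0.93 ± 0.20, SE; -0.65 and not called with library size alone). Plin1, the coat protein of lipid droplets, lay at 266 to 463 CPM in node-poor and 117 to 278 CPM in node-rich libraries. Scd1, a desaturase, had a fold of -1.21 ± 0.29 and Adrb3, the adrenergic receptor of fat, -1.05 ± 0.18 (SE), and both were called with library size alone too. Of 15 lipogenesis genes 4 were called, Scd1, Srebf1, Agpat2 and Pnpla3. In bulk RNA, fewer cells of a type and less RNA per cell cannot be told apart, nor can either be told from the larger share of reads that node genes took.

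All 5 genes of fat capillaries were called lower with TMM and none kept the call with library size alone. Gpihbp1, which carries lipoprotein lipase across the capillary wall, had 17.6, 19.4, 23.1, 24.4 and 24.9 CPM in node-poor libraries and 8.83 to 13.9 CPM in node-rich ones (-0.80 ± 0.13, SE; -0.55 with library size alone). Endothelial genes in general gave 5 of 16 lower, Flt1, Esam, Emcn, Vwf and Sox17, and 1 higher. That 1 was Pecam1, at 89.1, 90.3, 93.2, 98.1 and 100.2 CPM against 104 to 133 CPM, a junction protein that leukocytes and platelets carry too (0.37 ± 0.10, SE; the call was lost with library size alone). Cdh5, a junction protein of endothelium, had a fold of -0.30 ± 0.11 and was not called (-0.05 with library size alone). Pericyte and smooth muscle genes were called lower in 4 of 9 cases and fibroblast genes in 3 of 20, Sparc, Lum and Pdgfra, the latter share being near the 11.1% of all genes. Dpp4, a peptidase of fibroblast precursors and T cells, was the fibroblast list member called higher (0.40 ± 0.13, SE).

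**Figure D4:**
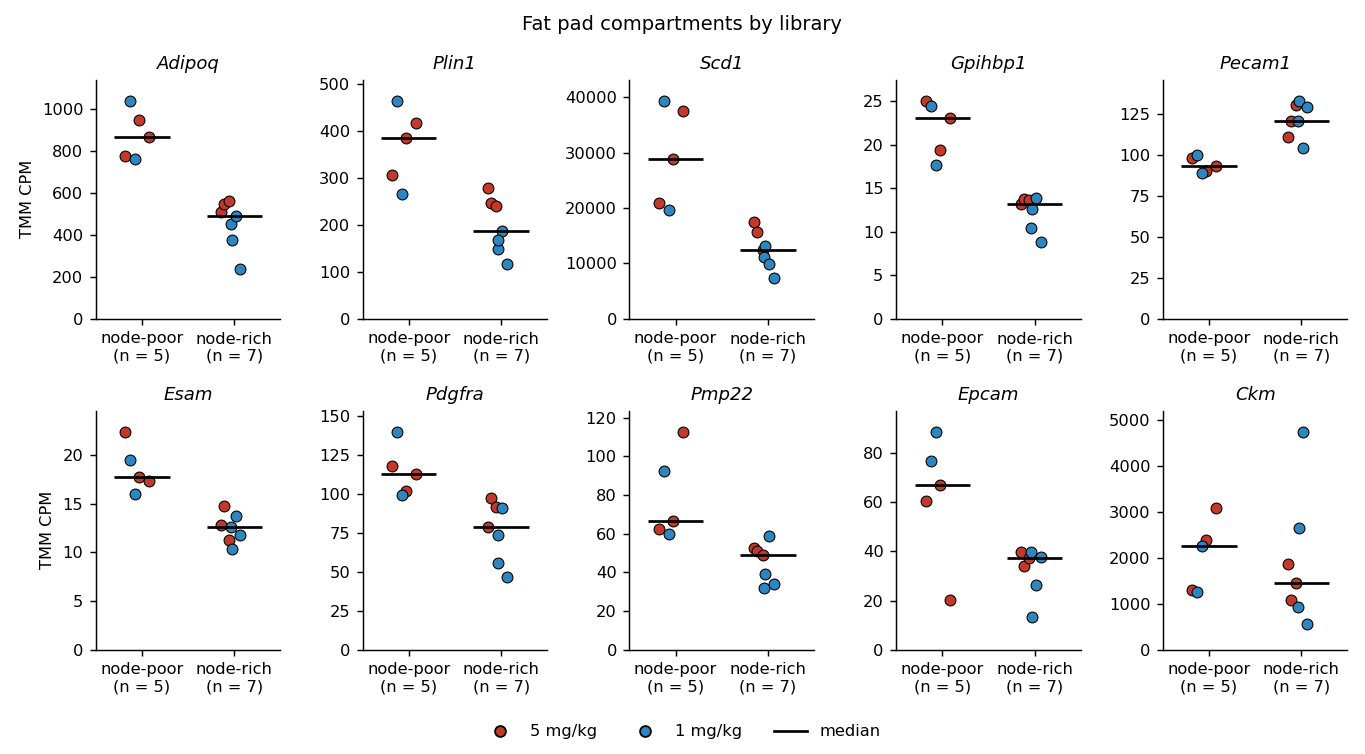
TMM-scaled CPM on linear axes from 0 of 10 genes of fat, vessel, fibroblast, nerve, epithelium and muscle in each library; points are libraries and bars are medians. Adipoq, Scd1, Gpihbp1, Esam, Pdgfra and Pmp22 are lower in every node-rich library than in any node-poor one, Pecam1 is higher, and Epcam and Ckm overlap.

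Genes of the mammary ducts mostly had log2 folds below 0 with wide spread, and a minority were called lower, against 11.1% of all genes. Of 13 luminal genes 13 had a log2 fold below 0 and 3 were called, Epcam, Elf3 and Grhl2 (list median -0.92; -0.69 with library size alone). Epcam, an adhesion protein of epithelium, had 20.3, 60.3, 67.0, 76.7 and 88.4 CPM in node-poor and 13.3 to 39.8 CPM in node-rich libraries, with overlap through replicate 5 at 5 mg/kg, and its call was lost in 19 alternatives. Of 9 hormone-sensing genes 3 were lower, Esr1, Prlr and Cited1, with Esr1, the oestrogen receptor, at 60.7 to 91.7 against 28.3 to 63.5 CPM. Pgr, the progesterone receptor, was not called (-0.35 ± 0.45, SE). Of 7 basal genes Trp63 and Cnn1 were called lower, of 6 secretory genes Lcn2 and Xdh, and of 6 epidermal genes Sbsn. Of 7 Schwann cell genes 5 were lower, among them Pmp22, a myelin protein, with 60.1 to 112 CPM in node-poor and 31.7 to 59.1 CPM in node-rich libraries. The Schwann cell list median was -0.77, and -0.47 with library size alone, a scaling with which only 58 of all genes were called lower. The 10 genes of smallest p among those lower begin with Pkp2, a desmosomal protein (9.68 to 13.8 against 4.41 to 6.76 CPM). The 10 of largest fold include Fgb, a fibrinogen chain, Cited1, and Hoxc8, a homeobox gene of body position (10.5 to 20.6 against 3.64 to 8.67 CPM, -1.42 ± 0.24, SE, called with library size alone too).

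Muscle and brown fat genes varied widely within the classes. None of 13 fast muscle, 6 slow muscle and 14 brown fat genes was called, against 29.0% of all genes in either direction. All 13 fast and all 6 slow muscle genes had a log2 fold below 0, as did 11 of the brown fat genes. At this spread, a lack of calls does not show that the classes were alike. The medians of these lists were -0.21, -1.35 and -0.24, and without replicates 4 and 5 at 5 mg/kg they were 0.22, 0.58 and 1.31. Ucp1, the uncoupling protein of brown fat, was at 870 and 791 CPM in those libraries, at 0.901 CPM in replicate 6 at 5 mg/kg, also node-poor, and at 14.2 to 563 CPM in node-rich libraries.

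Folic acid dose was tested with node class as covariate, a comparison the rule did not use. No gene passed: edgeR called 0 of 19102 (0%), with 494 at an unadjusted p under 0.05, DESeq2 called 0 with 698, and limma-voom 0 with 459. Without node class in the model edgeR also called 0, with 372. For the node genes themselves the log2 fold of 5 mg/kg over 1 mg/kg was 0.01 for Cd79a, -0.04 for Cd3e, 0.44 for Glycam1 and 0.32 for Marco (edgeR adjusted p = 0.999 each). The interaction, whether the node contrast differs between the folic acid groups, gave 0 genes (0%) by edgeR with 381 at an unadjusted p under 0.05, 0 by DESeq2 with 550 and 0 by limma-voom with 394. Fitted within each group, the log2 fold of node-rich over node-poor was 7.34 at 1 mg/kg and 6.83 at 5 mg/kg for Cd79a, 7.93 and 8.16 for Marco, and -1.21 and -0.68 for Adipoq. With 2 node-poor libraries at 1 mg/kg, these folds carry little replication.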

How the data were processed

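RNA was measured by sequencing of 12 mammary fat pad libraries made from 1 µg of total RNA each. The deposited values are read counts by gene, not normalized. The submitters' processing notes name STAR, the build mm10 and HTSeq 0.6.1. They leave out the annotation and strand setting (not given in the sources used here). A table had 55487 gene IDs and 5 tally lines, which held 16.7% to 35.7% of reads and were left out. Symbols were matched for 55141 IDs, and positions came from GENCODE vM21 (GRCm38, the assembly of mm10). No pair of libraries within a folic acid group agreed within sampling noise (lowest chi-square per degree of freedom 41.7 of 30 pairs).

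Node class was set from Ms4a1 at 5 plain CPM. The deposited counts were fitted with edgeR 4.0.16 (R 4.3.3; filterByExpr by class, TMM, robust quasi-likelihood, terms for class and folic acid group, Benjamini-Hochberg adjustment), and the fit was tested on simulated data. Standard errors were derived from the fold and its F statistic. The alternatives used DESeq2 1.42.0, limma-voom (limma 3.58.1), other scalings, filters, covariates and classes, and left out each library in turn. The members and lists were chosen with earlier results of these data known. In each direction, the 10 genes of largest fold and the 10 of smallest p with a mean of at least 1 CPM could be named, apart from predicted genes and receptor segments. A fixed set of landmark genes was named whatever its values, and other list members were picked as examples after their values were seen. Some genes that these rules name are left out. Without strand, reads of overlapping genes cannot be told apart, and genes with near-identical copies lose reads.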

Additional observations from a re-analysis of the deposited data

Results flagged for a closer look

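Single libraries far from the rest of their class were looked for in 100 groups of gene and class, and 18 stood apart by the ratio of the gap to the range. Chance flags about 1 in 20 groups, and genes of one compartment are not independent.

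Replicate 3 at 1 mg/kg was the lowest node-rich library, well below the next, for Cd79a (10.9 CPM, next 36.2), Cd3e (4.495, next 13.2), Cd4 (17.7, next 41.6), Cd8a (7.12, next 21.4), Ltb (7.37, next 23.5), Stab2 (20.4, next 32.5) and Siglech (7.99, next 14.4). It was also lowest for the fat hormone Lep (6.46 CPM, next 21.3). Replicate 5 at 1 mg/kg was the lowest node-rich library for Col1a1, a collagen (58.9 CPM, next 144), Epcam (13.35, next 26.3) and the casein gene Csn3 (3.25, next 7.54).

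Among node-poor libraries, replicate 5 at 5 mg/kg was highest for Cr2 (1.33 CPM, next 0.637) and lowest for Krt8 (23.9 CPM, next 78.4) and Epcam (20.3, next 60.3). Replicate 4 at 5 mg/kg was highest for Glycam1 (7.001 CPM, next 1.24), and replicate 6 at 5 mg/kg for Cd8a (0.839, next 0.380). Replicate 2 at 1 mg/kg was lowest for Cxcr5 (0.0336 CPM, next 0.177) and replicate 4 at 1 mg/kg for Stab2 (0.668, next 1.49).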

How the results depend on the processing

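The number of genes higher in node-rich libraries (3416) was 2111 at an adjusted p under 0.01, 1826 within the 5 mg/kg libraries, 723 within the 1 mg/kg libraries, and 2570 to 4379 with each library left out in turn. The number lower (2119) was 631 at 0.01, 365 and 186 within the 5 mg/kg and 1 mg/kg libraries, 58 with library size alone, 1372 with no filter, 3618 with the brown fat level as covariate, 3460 with classes from Cd3e, and 975 to 3122 with each library left out. Genes whose classes do not overlap numbered 906 higher and 38 lower with library size alone. Under the other alternatives run, these counts stayed within 1.5 times. The counts for folic acid and for the interaction were 0 under every alternative run. No landmark gene's called fold changed sign under any alternative run; calls were lost most often for Epcam (19 alternatives), Lep (14) and Acta2 (13). With library size alone the medians of the fat pad macrophage, mast cell, brown fat and fast muscle lists, none of them called as a list, were above 0. Removing both libraries highest in slow muscle and brown fat genes was chosen after seeing the data. Depth limits genes near 0 in node-poor libraries, whose folds rest on few reads, and the cause of the other shifts was not tested. No paired analysis was possible because the labels give the libraries no replicate numbers that link the folic acid groups.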
